A study of Mus musculus with 9 samples.

Results

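The 10 genes described here, Dkk1, Dkk2, Dkk3, Sfrp1, Sfrp2, Wnt5a, Axin2, Lef1, Tcf7 and Nkd2, code for secreted Wnt antagonists, 1 Wnt ligand and proteins that act inside the cell in canonical Wnt signalling. They were taken by symbol from a table of 26202 genes, and each of the 10 was found. Messenger RNA was sequenced from ATDC5 cells, a mouse chondrogenic line used as a culture model of cartilage formation, in 3 control, 3 acetate and 3 ethanol libraries. Common to the 9 libraries were a DMEM/F-12 base with 5% serum and the differentiation supplements ascorbate (50 µg/mL), beta-glycerophosphate (10 mM) and insulin-transferrin-selenium. No dose or duration is stated for either agent, nor what the controls received, and the treatment text of the labels describes mice and another cell line. The labels also do not say that replicates were separate cultures, so p-values measure the spread between libraries of 1 cell line, which may be technical.

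Wnt proteins are secreted ligands that bind Frizzled receptors and LRP co-receptors. In the canonical branch this stabilises beta-catenin, which enters the nucleus and acts with TCF/LEF factors on target genes, and several of those targets, such as Axin2, feed back on the pathway. Of the Dickkopf (Dkk) proteins, Dkk1 and Dkk2 act at the LRP co-receptors, and secreted Frizzled-related proteins (Sfrp) bind Wnt ligands outside the cell. In cartilage the canonical branch is known to restrain early chondrogenesis and to favour hypertrophy, and in bone it favours osteoblast formation. Wnt5a acts largely through a branch that does not need beta-catenin.

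Levels are TMM-scaled CPM, reads of a gene scaled to library size, from libraries of 28.7 to 41.9 M reads. A level carries its SD over n = 3 libraries and a log2 fold change its standard error, the latter from limma on log2(CPM + 1), where the changes of weakly expressed genes come out too small. A gene was called when its limma p-value lay under 0.05 after adjustment over 12868 genes, those averaging 1 CPM or more. Of the 10 genes, 9 met that minimum and Dkk2 did not. In bulk RNA, fewer cells of a type and less RNA per cell cannot be told apart. The 6 chondrocyte marker genes were all above 1 CPM, and their summed level was 9900 to 12931 CPM in control, 5131 to 5783 in acetate and 4670 to 5903 in ethanol. Most of that sum is Col2a1, which averaged 9089, 4346 and 4008 CPM in control, acetate and ethanol. The 5 osteoblast markers were also all above 1 CPM and summed to 7032 to 8241 CPM in control, 4698 to 7664 in acetate and 4415 to 5209 in ethanol, so that ethanol lay wholly below control and acetate did not. Most of that sum is Ibsp, which averaged 7268, 5960 and 4249 CPM in control, acetate and ethanol. The other osteoblast markers, named after their values were seen, went different ways. Bglap averaged 15.7, 23.1 and 4.26 CPM in control, acetate and ethanol, and Ifitm5 13.5, 18.3 and 9.67. Both had the order of means also found for Dkk1 and Sfrp2 below, while Ibsp, Dmp1 and Sp7 had other orders. Dmp1 averaged 107, 179 and 288, and Sp7 averaged 310, 310 and 268. The part of either marker list in the results below was not tested. Of 5 fat cell markers 2 were above 1 CPM, Lpl and Pparg, and the list summed to 50.8 to 82.6 CPM over all libraries, with Cfd at 0. None of 5 muscle markers averaged 1 CPM, the list summed to 0.567 to 1.36, and Myod1 and Myog were at 0. The 5 blood and vessel cell markers summed to 2.33 to 3.31. Acetate replicate 2 stood apart from the other acetate libraries along the GC content of transcripts (Pearson r = 0.81 across 12746 genes, which are not independent). In that library the median log2 difference was -0.66 for transcripts below 48% GC and 0.20 for those of 50 to 55% GC. Dkk1 (45.9% GC), Dkk2 (45.7%), Lef1 (46.1%) and Wnt5a (46.7%) are among the former.

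Promoter sequence was searched for the members and Frzb, because TCF/LEF factors recognise a short core. RefSeq (GRCm38.p6) gave 11 start sites for 7 of the 10 genes, with none for Dkk3, Sfrp1 and Wnt5a. The 250 bases before each start were searched on both strands for CTTTGA, taken as the TCF/LEF core, with TCAAAG as its reverse complement. They were also searched for TATAAA, taken as the TATA box core. CTTTGA was in 13.8% of all 32851 promoters of that length and in 2 of the 11 member promoters, that of Dkk1 and 1 of the 4 starts of Lef1. The Dkk1 promoter held 2 matches, which lie 174 and 117 bases before the start. TATAAA was in 12.4% of all promoters and in 4 of the 11 member promoters, those of 4 members. Among them are Dkk1 and Dkk2, where it faces the start at 54 and 32 bases. Frzb, an Sfrp relative described below, held 1 CTTTGA match. The promoters of Sfrp2, Axin2 and Nkd2 held neither CTTTGA nor TATAAA in this window, and other spellings of either core were not searched. A stretch of 30 bases around each match is shown for the antagonists, 5′ to 3′ on the gene's strand, with the matched core in capitals.
Dkk1, distal TCF/LEF core, chr19:30549653-30549682, minus strand: gaggggagagtgTCAAAGtcctccctgctt
Dkk1, proximal TCF/LEF core, chr19:30549596-30549625, minus strand: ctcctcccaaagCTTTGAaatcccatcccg
Dkk1, TATA core, chr19:30549533-30549562, minus strand: tgggagcctgagTATAAAggcagccagagg
Dkk2, TATA core, chr3:132085248-132085277, plus strand: actgaggaaagcTATAAAaagctaagaggg
Frzb, TCF/LEF core, chr2:80447474-80447503, minus strand: tcccctgaaaacTCAAAGccttctcggaag
GENCODE M21 places the Dkk1 gene at chromosome 19, 30545863 to 30549665, so its start lies upstream of the RefSeq one and the Dkk1 stretches lie in or across the start of that gene model. A match says only that these letters are present.

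Dkk1 (minus strand), whose protein is a secreted inhibitor at the LRP co-receptors, had the deepest fall with ethanol among the 9 tested members. It stood at 9.76, 11.0 and 12.4 CPM in control replicates 1, 2 and 3, at 13.9, 14.3 and 16.5 in acetate and at 3.58, 3.56 and 5.75 in ethanol. The 3 groups did not overlap with one another, and acetate lay above control where ethanol lay below it. The means were 11.0 ± 1.32 in control, 14.9 ± 1.38 in acetate and 4.29 ± 1.26 in ethanol, so the ethanol mean was 0.389 of control and the acetate mean 1.35 of it. The fall with ethanol passed the threshold (log2 fold change -1.20 ± 0.17, adjusted p = 0.00707), as did the direct difference of acetate from ethanol (1.61 ± 0.17, adjusted p = 0.00235). For acetate against control the log2 fold change was 0.40 ± 0.17 (adjusted p = 0.322). Both calls held in each of the 19 alternative settings, with adjusted p at most 0.0474 (without ethanol replicate 2) for ethanol and at most 0.0254 for acetate against ethanol.

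Sfrp2 (chromosome 3, 83766321 to 83774316, plus strand) codes for a secreted protein with a Frizzled-like domain and, per transcript length, was the highest of the 10 genes in control. Its levels were 56.6, 75.0 and 45.3 CPM in control, 72.4, 94.5 and 57.2 in acetate, and 31.9, 41.2 and 23.6 in ethanol. Ethanol lay below both other groups in all libraries, while acetate and control overlapped. The ethanol mean of 32.2 ± 8.80 was 0.546 of the control mean of 58.9 ± 15.0 (-0.86 ± 0.26, adjusted p = 0.110), and Sfrp2 did not pass in that contrast. Replicate 2 was the highest and replicate 3 the lowest in all 3 groups, and with a block for replicate number Sfrp2 passed (-0.86 ± 0.09, adjusted p = 0.00324). It also passed without acetate replicate 2 (0.0193), with only the 6 libraries compared (0.0141) and after correction for GC content (0.0311). Those 3 settings called 21.5%, 26.8% and 11.1% of all genes. Over all alternatives the adjusted p of Sfrp2 in that contrast ran up to 0.367. Against ethanol, acetate was higher (mean 74.7 ± 18.7, 1.19 ± 0.26, adjusted p = 0.0358). That call was lost without control replicate 1 (0.0709), acetate replicate 1 (0.0765) or ethanol replicate 1, 2 or 3 (0.120, 0.0638 and 0.146), with only the 6 libraries compared (0.0921) and with no filter on low genes (0.0631), and it held with the block (0.00296).

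**Figure D1:**
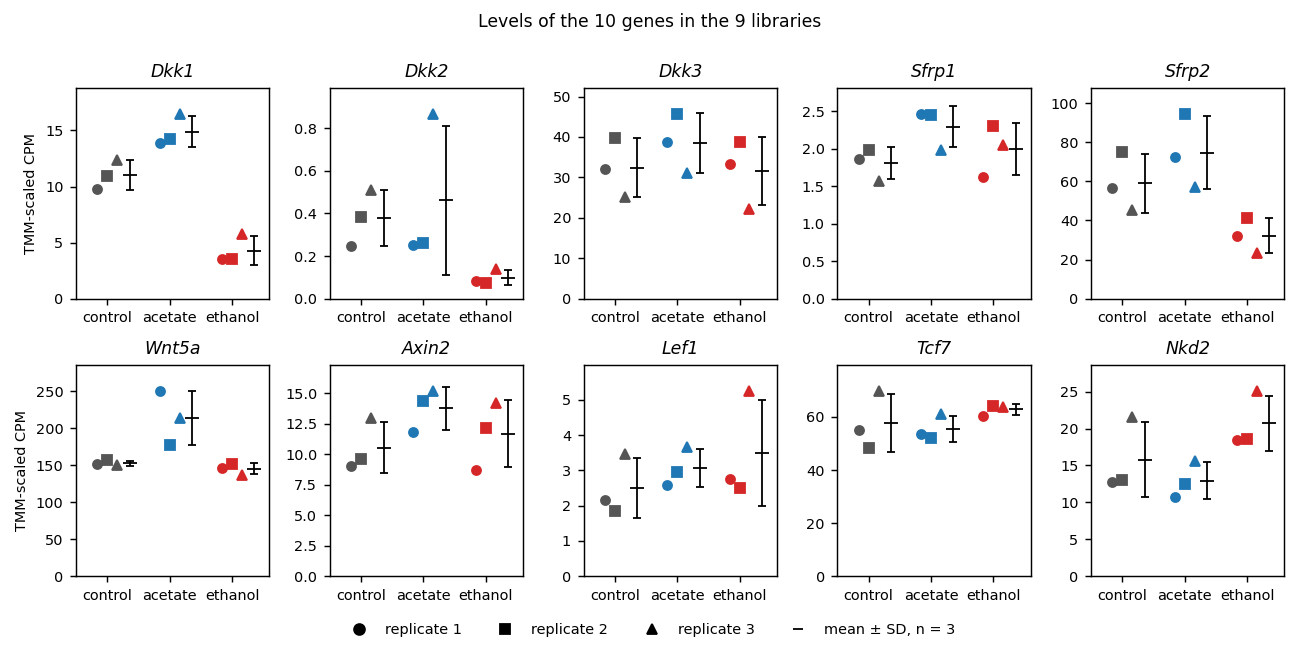
TMM-scaled CPM (y axis, from 0) of the 10 genes in each library, by group and replicate number, with mean ± SD of 3 libraries beside the points. Dkk1 lies highest in acetate (13.9 to 16.5) and lowest in ethanol (3.56 to 5.75), and Sfrp2 is lowest in ethanol (23.6 to 41.2).

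The other antagonists did not pass in any contrast. Dkk3 (chromosome 7, 112116017 to 112159057, minus strand), which codes for a divergent Dickkopf protein, stood at 32.0, 39.8 and 25.2 CPM in control, at 38.8, 45.7 and 31.1 in acetate and at 33.4, 38.8 and 22.3 in ethanol. Its groups overlapped in every contrast, with 0.25 ± 0.24 for acetate (adjusted p = 0.563) and -0.05 ± 0.24 for ethanol (adjusted p = 0.948). Sfrp1 (chromosome 8, 23411502 to 23449632, plus strand), whose protein like that of Sfrp2 binds Wnt ligands, was low, at 1.57 to 1.98 CPM in control, 1.98 to 2.46 in acetate and 1.62 to 2.31 in ethanol. Its log2 fold changes were 0.23 ± 0.13 for acetate (adjusted p = 0.417) and 0.09 ± 0.13 for ethanol (adjusted p = 0.789).

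Dkk2 (chromosome 3, 132085292 to 132180304, plus strand), whose protein can raise or lower LRP signalling depending on context, rested on few reads. From the deposited scale, 9, 11 and 20 reads were recovered in control, 10, 9 and 32 in acetate and 3, 3 and 6 in ethanol. These are 0.247 to 0.508 CPM in control, 0.254 to 0.867 in acetate and 0.0721 to 0.138 in ethanol. Each ethanol value lay below each value of the other groups, and the acetate mean of 0.461 ± 0.352 was set by replicate 3. With the minimum lowered to 0.1 CPM, Dkk2 did not pass (-0.32 ± 0.15 for ethanol against control, adjusted p = 0.263; 0.39 ± 0.15 for acetate against ethanol, adjusted p = 0.181).

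Wnt5a (chromosome 14, 28504750 to 28527448, plus strand), the ligand of the set, had control values close together, at 151, 157 and 150 CPM. Acetate stood at 249, 177 and 214 and ethanol at 146, 152 and 137. All 3 acetate values were above all control and ethanol values, and the lowest of them was replicate 2. That library read low for transcripts of low GC content. For the other members of low GC content, Dkk1, Lef1 and Dkk2, the highest acetate value was that of replicate 3. In replicate order, Dkk1 stood at 13.9, 14.3 and 16.5 CPM in acetate, and Lef1 at 2.59, 2.97 and 3.66. Dkk2 stood at 0.254, 0.262 and 0.867, on few reads. The part of GC content in the Wnt5a value of acetate replicate 2 was not tested. The Wnt5a acetate mean of 213 ± 36.3 was 1.40 of the control mean of 153 ± 3.47 (0.47 ± 0.13, adjusted p = 0.148). It was 1.47 of the ethanol mean of 145 ± 7.50 (0.54 ± 0.13, adjusted p = 0.0598), and neither difference passed. Both passed without acetate replicate 2 (0.60, adjusted p = 0.00742, and 0.67, adjusted p = 0.00182) and after correction for GC content (adjusted p = 0.0215 and 0.00634). The share of all genes called rose from 1.00% and 3.73% to 3.48% and 8.61% without that library. After GC correction it was 3.55% and 8.14%. Over all alternatives the adjusted p of Wnt5a ran up to 0.463 and 0.221. Ethanol and control overlapped (-0.07 ± 0.13, adjusted p = 0.842).

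Axin2 (chromosome 11, 108920349 to 108950783, plus strand), which codes for a scaffold of the beta-catenin destruction complex and a widely used readout of canonical signalling, did not pass. It was 9.07, 9.63 and 13.0 CPM in control, 11.8, 14.4 and 15.1 in acetate and 8.74, 12.2 and 14.2 in ethanol. The groups overlapped in each contrast, at 0.36 ± 0.19 for acetate (adjusted p = 0.404) and 0.13 ± 0.19 for ethanol (adjusted p = 0.797). Without ethanol replicate 3 the latter was -0.01. The Axin2 difference with ethanol was smaller than its standard error.

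Lef1 (chromosome 3, 131110471 to 131224356, plus strand) and Tcf7 (chromosome 11, 52252371 to 52283014, minus strand) code for DNA-binding partners of beta-catenin, and both genes are themselves targets of the pathway. Lef1 was low, at 2.17, 1.84 and 3.45 CPM in control, 2.59, 2.97 and 3.66 in acetate and 2.75, 2.50 and 5.24 in ethanol, so replicate 3 was the highest in each group. Its log2 fold changes were 0.24 ± 0.24 for acetate (adjusted p = 0.591) and 0.34 ± 0.24 for ethanol (adjusted p = 0.501). Tcf7 was far more abundant, at 55.1, 48.4 and 69.6 CPM in control, 53.4, 52.0 and 61.0 in acetate and 60.3, 64.2 and 63.8 in ethanol. It changed by -0.04 ± 0.14 in acetate (adjusted p = 0.875) and 0.14 ± 0.14 in ethanol (adjusted p = 0.674), with overlapping groups.

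Nkd2 (chromosome 13, 73818534 to 73847631, minus strand), which codes for an inhibitor of Dishevelled, the adaptor below Frizzled, had a mean of 0.820 of control in acetate and 1.31 of control in ethanol. Tcf7 had the same order of means, at 0.961 and 1.09 of control. Control stood at 12.7, 13.1 and 21.6 CPM, acetate at 10.7, 12.5 and 15.7 and ethanol at 18.5, 18.6 and 25.0. Acetate and ethanol did not overlap, while control replicate 3 lay among the ethanol values. The direct difference was -0.64 ± 0.22 (adjusted p = 0.157) and passed with the block for replicate number (-0.64 ± 0.11, adjusted p = 0.0217; up to 0.432 over the alternatives). Against control, the log2 fold changes were -0.24 ± 0.22 for acetate (adjusted p = 0.554) and 0.40 ± 0.22 for ethanol (adjusted p = 0.380). Nkd2 therefore took the opposite order of means to Dkk1 and Sfrp2 over the 3 groups.

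**Figure D2:**
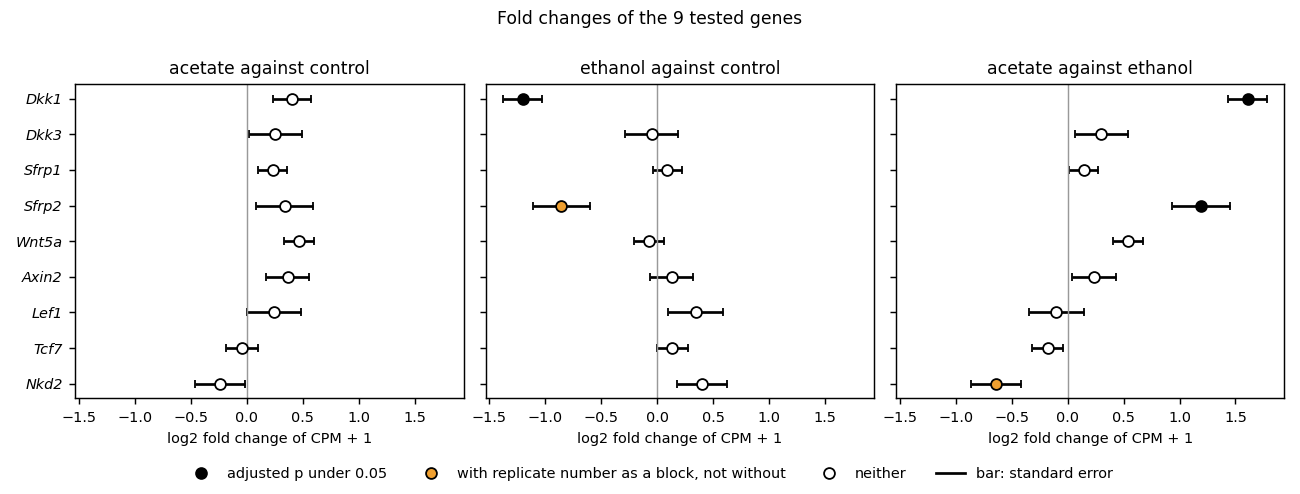
Log2 fold change of CPM + 1 (x axis) with standard error for the 9 tested genes in 3 contrasts. Filled points have an adjusted p under 0.05 (Dkk1 with ethanol, Dkk1 and Sfrp2 between acetate and ethanol), and orange points reach it with replicate number as a block but not without (Sfrp2 with ethanol, Nkd2 between acetate and ethanol).

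Counted over the 9 tested members, none was called for acetate, where 129 of all genes tested (1.00%) were called. At an unadjusted p under 0.05 limma listed 2 of the 9 for acetate, Dkk1 and Wnt5a, where 14.6% of all genes were listed. The acetate values of the same pair lay wholly above control, as did those of 11.4% of all genes. For ethanol 1 was called lower, Dkk1, where 2.45% of all genes were lower and 3.93% were called in either direction, and 2 lay wholly below control, as did 23.3% of all genes. Between acetate and ethanol 2 were called, both higher in acetate, where 2.84% of all genes were higher and 3.73% were called in all, and 4 did not overlap, against 27.8% of all genes. With replicate number as a block the counts were 2 for ethanol, both lower (background 5.07% lower, 8.35% in all), and 3 between the treatments, Nkd2 lower (background 6.40% in all). The median log2 fold change of the 9 was 0.25 for acetate and 0.09 for ethanol, beside -0.01 and -0.00084 over all genes tested. The contrasts with control share the 3 control libraries, and acetate and ethanol each enter a contrast more than once.

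Control and ethanol libraries of the same number deviated together over all genes. Acetate and ethanol libraries did so mainly in number 3 (Pearson r = 0.615, beside 0.150 and 0.251 in numbers 1 and 2). Replicate 3 was the highest of its group in all 3 groups for 4 of 9 members, Dkk1, Axin2, Lef1 and Nkd2, as it was for 18.4% of all genes tested. It was the lowest in all 3 groups for Dkk3 and Sfrp2, as for 11.6% of all genes. Over numbers 1, 2 and 3, ethanol over control gave 0.563, 0.549 and 0.521 for Sfrp2 and acetate over ethanol gave 2.27, 2.29 and 2.42. The spread of these ratios, as SD over mean, was 3.91% and 3.54%, where the 3 groups of Sfrp2 values spread by 25.1% to 27.3%. For ethanol over control the ratios spread less than either group for 5 of the 9 members, Dkk3, Sfrp2, Axin2, Lef1 and Nkd2, more than both for Sfrp1, and in between for Dkk1, Wnt5a and Tcf7. For acetate over ethanol they spread less than either group for Dkk3, Sfrp2, Axin2 and Nkd2 and more than both for Sfrp1 and Wnt5a. Dkk1 was at 0.366, 0.325 and 0.464 with ethanol over control and at 3.89, 4.01 and 2.87 with acetate over ethanol, on 1 side of 1 in each number. Nkd2 was at 1.46, 1.42 and 1.16 and at 0.577, 0.674 and 0.626, the opposite way round. Wnt5a ratios were 0.968, 0.971 and 0.914 and 1.70, 1.16 and 1.56. Sfrp1 (0.865, 1.16 and 1.30 for ethanol over control), Axin2 (0.964, 1.26 and 1.10) and Tcf7 (1.10, 1.33 and 0.918) lay on both sides of 1, and Lef1 (1.27, 1.36 and 1.52) above it. Acetate and control libraries were less clearly matched by number, so their ratios are given only as a description. Acetate over control gave 1.28, 1.26 and 1.26 for Sfrp2 and 1.43, 1.30 and 1.33 for Dkk1. Wnt5a was at 1.65, 1.13 and 1.43, Nkd2 at 0.840, 0.957 and 0.725 and Tcf7 at 0.970, 1.07 and 0.877. Dkk3, Sfrp1, Axin2 and Lef1 lay above 1 in each number.

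**Figure D3:**
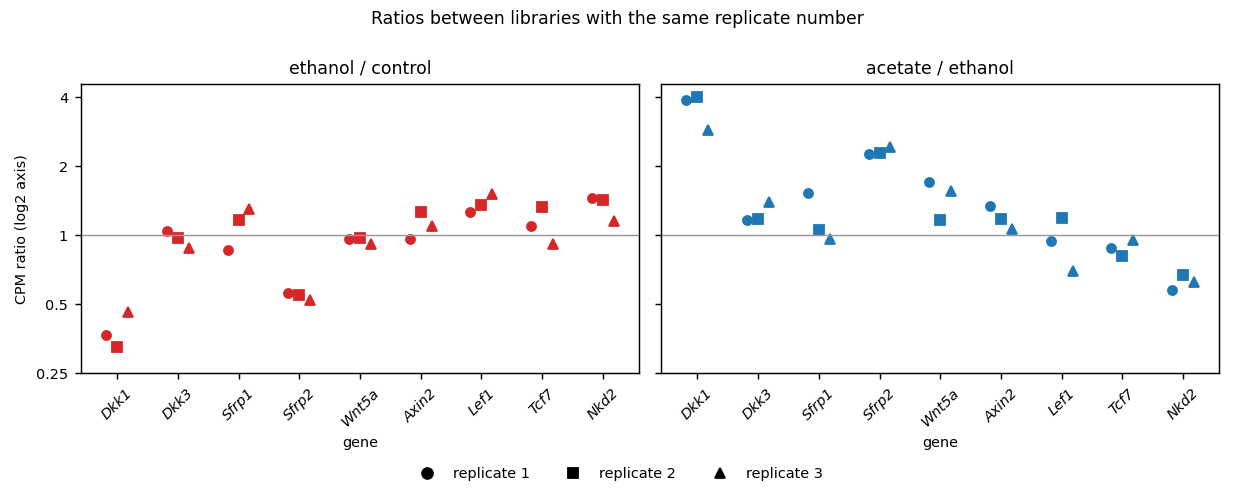
Ratio of CPM between libraries of the same replicate number (y axis, log2-spaced) for the 9 tested genes, ethanol over control at left and acetate over ethanol at right, 1 point per number. For ethanol over control the Sfrp2 points lie between 0.521 and 0.563 and the Dkk1 points between 0.325 and 0.464, while Sfrp1, Axin2 and Tcf7 lie on both sides of 1.

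Levels were compared between members per kilobase of the longest transcript. In control the order began with Sfrp2 (29.4 ± 7.49 CPM per kb), Tcf7 (23.3 ± 4.37) and Wnt5a (21.8 ± 0.495), whose intervals of 1 SD overlapped. Dkk3 followed (9.63 ± 2.17), then Dkk1 (4.55 ± 0.544), Nkd2 (3.93 ± 1.26) and Axin2 (2.48 ± 0.493), where each overlapped its neighbour within 1 SD. Lef1 (0.681 ± 0.233), Sfrp1 (0.414 ± 0.0481) and Dkk2 (0.102 ± 0.0352) were the lowest. In ethanol Sfrp2 (16.1 ± 4.39) stood behind Tcf7 (25.4 ± 0.860) and Wnt5a (20.7 ± 1.07), and Dkk1 (1.77 ± 0.518) lay below Nkd2 (5.15 ± 0.932) and Axin2 (2.75 ± 0.647), where Sfrp2 overlapped Wnt5a and Dkk1 overlapped Axin2 within 1 SD. In acetate Sfrp2 (37.3 ± 9.36) led again, overlapping Wnt5a (30.4 ± 5.18), and Dkk1 (6.14 ± 0.569) again followed Dkk3 (11.5 ± 2.18).

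The rest of the pathway was read from 7 lists of ligands, antagonists, receptors, the R-spondin axis, the beta-catenin machinery, target genes and the planar polarity branch, which together hold 105 further genes, 82 of them tested. The antagonist list had the most calls. Of its 12 tested genes, members included, 3 fell with ethanol and none rose (2.45% of all genes fell), namely Frzb, Dkk1 and Sost, with a list median of -0.25. With replicate number as a block 5 fell, Sfrp2 and Wif1 with them (5.07% of all genes), and Apcdd1 rose. Between the treatments all 12 had a higher fitted level in acetate than in ethanol, as had 48.9% of all genes, with a median of 0.47 beside -0.01 over all genes. Of them 3 passed, Dkk1, Sfrp2 and Sost, where 2.84% of all genes were called higher. The list was chosen with results of these data known.

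Frzb, an Sfrp-family antagonist known from cartilage, was the most abundant tested antagonist by CPM. It stood at 380, 348 and 380 CPM in control, at 234, 127 and 204 in acetate and at 146, 117 and 138 in ethanol. Both treatments lay wholly below control. The fall with ethanol passed (-1.47 ± 0.21, adjusted p = 0.00692, at most 0.0471 when any 1 library was left out), and for acetate the log2 fold change was -1.01 ± 0.21 (adjusted p = 0.0596, with up to 0.262 over the alternatives). The chondrocyte markers moved the same way in both treatments, and their part in the Frzb values was not tested. Frzb thus differed from Dkk1 and Sfrp2, whose acetate means lay above control.

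Sost codes for sclerostin, an LRP-binding inhibitor best known from osteocytes, and it was low. Control stood at 4.12, 4.00 and 3.50 CPM, acetate at 3.28, 3.90 and 2.68 and ethanol at 1.19, 2.16 and 1.64. Ethanol lay below both other groups (-0.89 ± 0.16 against control, adjusted p = 0.0203). Acetate against ethanol came to 0.69 ± 0.16 (adjusted p = 0.0497), a call that was lost with the GC trend removed (0.116) and without any of 7 libraries, all but acetate replicates 2 and 3 (up to 0.168). The ethanol call was lost without control replicate 1, 2 or 3 (0.108, 0.0791 and 0.0564) and without ethanol replicate 1 or 3 (0.0714 and 0.0837). Wif1, which binds Wnt ligands, went from 162 ± 24.1 in control to 103 ± 7.20 in ethanol (-0.64 ± 0.17, adjusted p = 0.0729, and 0.0273 with the block).

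**Figure D4:**
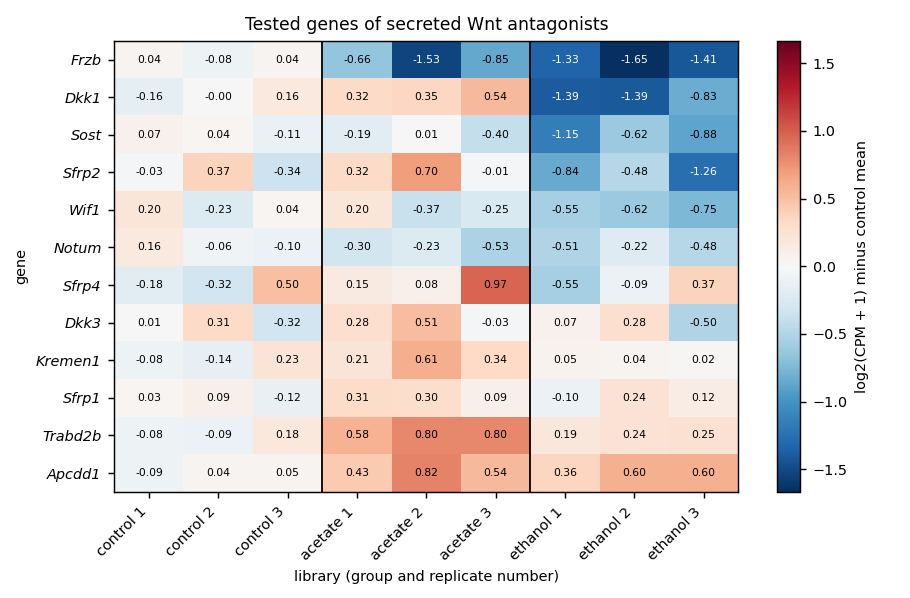
Log2(CPM + 1) minus the control mean (colour and printed value) for the 12 tested antagonist genes (rows) in the 9 libraries (columns), ordered by their ethanol mean. Frzb, Dkk1, Sost, Sfrp2, Wif1 and Notum are below 0 in all 3 ethanol libraries, and Trabd2b and Apcdd1 are above 0 in all 6 treated libraries.

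Among the 16 tested receptors only Fzd9, a Frizzled receptor, fell with ethanol, from 45.8 ± 3.77 to 28.3 ± 1.59 (-0.68 ± 0.14, adjusted p = 0.0338). The Fzd9 call was lost without any 1 of the control or ethanol libraries (0.0932 to 0.171), and no receptor was called for acetate. Fzd7 was higher in acetate (73.2 ± 4.32) than in ethanol (52.1 ± 2.92; 0.48 ± 0.10, adjusted p = 0.0312), and this was lost with the GC trend removed (0.112) and without any library other than acetate replicate 2 or 3 (up to 0.144). No gene among the 9 tested ligand-list genes passed, and Wnt7b, a ligand gene, stood at 0.86 ± 0.31 for ethanol (adjusted p = 0.181, and 0.0249 with the block).

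With acetate, 1 antagonist, 1 R-spondin receptor and 1 target gene passed among the further genes. Trabd2b, which codes for a membrane protease that inactivates Wnt ligands, rose from 65.4 ± 7.37 to 109 ± 9.14 (0.73 ± 0.12, adjusted p = 0.027). Lgr6, an R-spondin receptor gene, fell from 6.54 ± 1.34 to 2.88 ± 0.252 (-0.95 ± 0.16, adjusted p = 0.0312). Ccnd1, the cyclin D gene that canonical signalling can induce, rose from 107 ± 3.60 to 154 ± 10.5 (0.52 ± 0.10, adjusted p = 0.0476). None of these calls held without control replicate 1, 2 or 3, acetate replicate 3 or any ethanol library, with adjusted p up to 0.180 for Trabd2b, 0.158 for Lgr6 and 0.262 for Ccnd1, and that of Lgr6 was also lost without acetate replicate 1 (0.0578). Of the 24 genes of the beta-catenin machinery, none was called against control. Csnk1e, a casein kinase gene, was higher in acetate (85.4 ± 15.9) than in ethanol (50.3 ± 1.70), with a log2 fold change of 0.74 ± 0.14 (adjusted p = 0.0188). This call was lost without ethanol replicate 1, 2 or 3 (0.0789 to 0.0911). With only the 6 libraries compared, none of the further genes was called for acetate against control or between the treatments. The calls of Trabd2b, Lgr6, Ccnd1 and Csnk1e were thus lost there too, as were those of Sost and Fzd7 between the treatments.

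The 19 tested canonical target genes include the members Dkk1, Axin2, Lef1, Tcf7 and Nkd2. They had 1 call with acetate, Ccnd1, where 1.00% of all genes were called. With ethanol they had 1, Dkk1, already counted among the members, where 3.93% of all genes were called. Their median was 0.31 for acetate and 0.16 for ethanol, beside -0.01 and -0.00084 over all genes. Nkd1, the relative of Nkd2, stood at 7.62 ± 1.02 in control, 13.8 ± 2.54 in acetate and 8.88 ± 0.646 in ethanol (0.77 ± 0.15 for acetate, adjusted p = 0.0562). Nkd1 thus had its highest mean in acetate, where Nkd2 had its lowest. Over the 82 further genes, 3 were called for each contrast, beside 1.00% of all genes for acetate, 3.93% for ethanol and 3.73% between the treatments. With the block 13 were called for ethanol and 11 between the treatments, beside 8.35% and 6.40% of all genes.

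The genes most alike in pattern were taken as the 3 with the highest Pearson r of log2(CPM + 1) over the 9 libraries, as a description. For Dkk1 these were Ism1 (r = 0.98), which codes for a secreted protein, the metalloprotease gene Adamts9 (0.97) and Syn3 (0.97). Ism1 stood at 6.76 ± 0.409 in control, 7.99 ± 0.476 in acetate and 4.56 ± 0.155 in ethanol, and Adamts9 at 68.7 ± 6.05, 83.1 ± 1.37 and 52.0 ± 4.87. For Sfrp2 they were Fn3k (0.98), Mettl26 (0.98) and BC025920 (0.97). All 6 had their highest mean in acetate and their lowest in ethanol, which largely follows from picking them by r. The libraries share group and replicate number, so the points are not independent.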

How the data were processed

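Gene values for the 9 libraries were deposited on a log2 scale after TMM normalisation (26202 genes), as the name of the table says. Tools listed, per the submitters' processing notes, are Partek, Bowtie2 2.2.5, STAR 2.7.8a and mm10, with no role; annotation and counting are not given in the sources used here. Genes without reads sat at a floor near that of 1e-05 read, which was subtracted to give TMM-scaled CPM, and library sizes were recovered from it. Between 86.2% and 87.9% of values of 1 to 20 recovered reads were whole within 0.02 read, so they were not treated as counts.

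The 12868 genes averaging 1 CPM or more were fitted with limma 3.58.1 in R 4.3.3 on log2(CPM + 1), 1 mean per group over all 9 libraries, a variance prior that follows the mean, and Benjamini-Hochberg adjusted p-values. The procedure was tested on simulated data. GC content and length are those of the longest GENCODE M21 transcript on GRCm38, the build of mm10; 24919 symbols matched directly and 453 through a synonym. Sfrp2, Lef1, Tcf7, Axin2 and Wnt5a overlap annotated antisense genes, and Nkd2 overlaps a pseudogene on the other strand. The kit was stranded per the labels, and whether counting used the strand is not given in the sources used here. On their own strand, the gene spans of Tcf7 and Lef1 overlap Gm26551 and Gm42449, which strand does not tell apart. Python 3.11.15, pandas 2.3.3 and matplotlib 3.10.9 were used.

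Replicate numbers come from the titles. Deviations from group means correlated between same-numbered libraries at 0.55, 0.36 and 0.67 for ethanol and control and at 0.15, 0.25 and 0.61 for acetate and ethanol, so the number was taken to pair these. For acetate and control they gave 0.24, -0.10 and 0.41, and the number was not taken to pair them on these values. If the number pairs ethanol with both other groups, it also links acetate with control, and the labels do not settle this. The block fit uses the number in all 3 groups at once, so each of its results rests on it. Members and lists were chosen with earlier results of these data known. All members are named, along with up to 4 called genes per list and contrast and the 3 most similar genes of called members; Wif1, Nkd1, Wnt7b, Notum and Apcdd1 were named after their values were seen. Alternatives covered pseudocount, filter, scaling, variance trend, replicate block, GC correction (lowess, span 0.3), the libraries fitted and each library left out.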

Additional observations from a re-analysis of the deposited data

How the results depend on the processing

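Dkk1 kept both of its calls in every alternative run. The number of called members was 0 for acetate, 1 for ethanol and 2 between the treatments. With replicate number as a block it was 0, 2 and 3, with the GC trend removed 1, 2 and 3, and with both 3, 3 and 4. The share of all genes called rose with these settings too, from 1.00%, 3.93% and 3.73% to 2.28%, 8.35% and 6.40% with the block, 3.55%, 11.1% and 8.14% with the GC trend removed and 11.4%, 27.8% and 22.8% with both, so the added calls are not read as a result about the members. With only the 6 libraries compared it was 0, 2 and 1 (0.155%, 26.8% and 0.832% of all genes), and with no filter it was 1 between the treatments. Leaving out 1 library gave 0 to 1 for acetate, 1 to 2 for ethanol and 1 to 3 between the treatments. The 82 further genes had 3 calls per contrast. The replicate block gave 8, 13 and 11, the GC correction 11, 11 and 9, both together 20, 27 and 25, and only the 6 libraries compared 0, 24 and 0. Leaving out 1 library gave 0 to 11, 1 to 17 and 0 to 11. The block without acetate replicate 2 gave 6, 4 and 5 members and 32, 43 and 41 further genes (21.5%, 50.2% and 33.1% of all genes), but limma then took the variance as known from the trend, so these counts and the low ends of adjusted p are no measure of strength. Of the 6 acetate and control libraries, 3 correlated best with their own number, beside 6 for ethanol with control and 5 for acetate with ethanol. The acetate counts under the block are therefore not read as a paired result. Among them Frzb, Nkd1, Apcdd1 and Fosl1 were called.

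Directions that turned belonged to differences that were not called. With ethanol, Dkk3 came to 0.11 without control replicate 2 and 0.17 without ethanol replicate 3, where Axin2 came to -0.0136. Leaving out 1 library gave -0.21 to 0.17 for Dkk3 and -0.0136 to 0.31 for Axin2. Lef1 between the treatments turned to 0.16 without ethanol replicate 3 (-0.26 to 0.16), and Tcf7 with acetate to 0.10 without control replicate 3 and 0.00061 without acetate replicate 2 (-0.16 to 0.10). The cause was not tested. Dkk2 rested on 3 to 32 reads a library, Sfrp1 on 57 to 97 and Lef1 on 53 to 227.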
